A study of Mus musculus with 8 samples.

Results

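The mouse genes that encode collagen chains were examined in PyMt mammary tumors from mice treated with calcipotriol or with its solvent, EtOH. A gene was included when its Ensembl identifier carried a protein-coding symbol made of Col, a type number, the letter a and a chain number. This rule found 44 genes among the 55414 identifiers of the count table, of which 52081 had a symbol. By the structure of the chains, 11 genes were placed among the fibrillar collagens, 8 among the basement membrane collagens and 25 among the others. The tumors grew from PyMt cells, a line derived from a mouse model in which the polyoma middle T oncogene is driven by the MMTV promoter in the mammary epithelium, on the C57BL/6 background. The cells had been placed in the inguinal mammary fat pad of WT female C57BL/6 mice that were 6 to 8 weeks old. Calcipotriol, a vitamin D analog, was put on the skin over the tumor at a dose of 20 nmol, and controls received EtOH alone. Both treatments were given every 2 days from day 2 after implantation, and RNA was taken 24 hours after the last dose from 4 EtOH-treated tumors (replicates 1, 2, 3 and 4) and 4 calcipotriol-treated tumors (replicates 1, 5, 6 and 7). Both groups thus shared the cell line, the host strain and the schedule, and all tumors came from the same line, so that the tumor cells themselves are not independent isolates.

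Collagens are trimers of chains that wind around each other in a triple helix. Fibrillar collagens, with types I and III the most familiar, are secreted mainly by fibroblasts and assemble into the banded fibrils that give the tumor stroma its stiffness. Type IV collagen forms the sheet-like network of basement membranes under epithelium and around blood vessels, together with laminins, nidogens and perlecan. The remaining collagens decorate fibrils, form beaded filaments or hexagonal nets, anchor the epidermis, or cross the cell membrane.

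The library totals ran from 19685397 to 25084715 counts, and 3 counts, taken here as the floor of detection, were 0.119 to 0.146 CPM, a count scaled by the TMM-adjusted size of its library. The labels call the material epithelial, whereas the study describes whole tumors. Epcam was at 0 CPM in EtOH-treated tumors 1 and 2 and at no more than 22.7 CPM elsewhere, while Krt8 was at 284.8 to 652 CPM and Krt18 at 259.7 to 665 CPM. EtOH-treated tumors 1 and 2 stood apart from EtOH-treated tumors 3 and 4 in many collagen genes, and calcipotriol-treated tumor 1 often lay nearest the EtOH-treated tumors. The labels give no batch for these tumors, so the values below are given for each tumor, and several counts are also given without tumor 1 of either group. In RNA from whole tumors, fewer cells of a type and less RNA per cell cannot be told apart.

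Collagen genes took 1.59%, 1.33%, 1.07% and 0.990% of all counts in EtOH-treated tumors 1 to 4, and 0.930%, 0.572%, 0.994% and 1.10% in calcipotriol-treated tumors 1, 5, 6 and 7. These totals overlapped between the groups. Basement membrane collagens took 0.473%, 0.368%, 0.209% and 0.201% with EtOH, and 0.190%, 0.0846%, 0.142% and 0.160% with calcipotriol. Every calcipotriol-treated tumor was thus below every EtOH-treated tumor, the nearest pair by a narrow margin. Most of these counts came from Col4a1, Col4a2 and Col18a1. Not every member of the class followed, as Col4a5 overlapped between the groups and Col4a6 was higher with calcipotriol. Fibrillar collagens took 0.479% to 0.565% with EtOH and 0.266% to 0.570% with calcipotriol, and the groups overlapped. The other collagens overlapped as well, at 0.287% to 0.554% with EtOH and 0.222% to 0.368% with calcipotriol. Within the fibrillar class the sum hid a shift between chains. Col3a1 alone took 0.409% and 0.359% in EtOH-treated tumors 1 and 2, while the type I chains together took 0.0532% and 0.0449% there and 0.194% and 0.178% in EtOH-treated tumors 3 and 4.

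**Figure D1:**
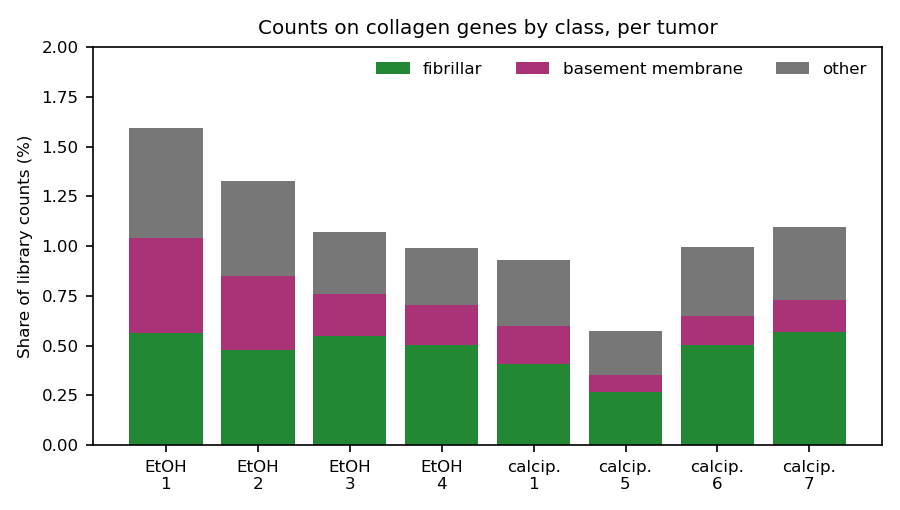
Stacked bars give the share of each tumor's library counts (%) that fell on fibrillar, basement membrane and other collagen genes, 1 bar per tumor (calcip., calcipotriol). The basement membrane segment runs from 0.201% to 0.473% in the EtOH-treated tumors and from 0.0846% to 0.190% in the calcipotriol-treated tumors.

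Levels were compared between genes as CPM per kilobase of the longest coding transcript. On this scale the highest means over the 8 tumors were those of Col3a1 (511), Col6a1 (281), Col6a2 (136), Col4a1 (133), Col1a1 (118) and Col18a1 (112). Col1a2 followed at 97.8 and Col4a2 at 96.4. With merged exons as the length, Col4a2 replaced Col6a2 among the first 6. Type III collagen, type VI collagen, which forms beaded filaments around cells, and the basement membrane chains thus made up most of the upper end, with the type I chains among them. At the other end, 21 of the 44 genes had a mean under 1 CPM per kilobase, and Col19a1, Col22a1 and Col26a1 had no counts in any tumor.

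Of the 44 genes, 37 passed edgeR's filter on low counts and were tested among 14458 genes. A gene was called when its Benjamini-Hochberg adjusted p over all genes tested was under 0.05 and its log2 fold change, calcipotriol over EtOH, was at least 1 in size. Col4a6 was the single collagen gene called higher and Col18a1 the single one called lower, both of them basement membrane collagens. Each is 2.70% of the 37, against a background of 1.07% called higher and 0.948% called lower among all genes tested. At an unadjusted p under 0.05 there were 5 higher and 9 lower collagen genes, where all genes tested gave 8.56% and 9.84%. Without EtOH-treated tumor 1 the numbers were 5 and 5 of 38 tested, against 9.12% and 8.56%, and without calcipotriol-treated tumor 1 they were 5 and 10 of 38, against 9.11% and 12.4%. In 5 collagen genes all calcipotriol-treated tumors exceeded all EtOH-treated tumors (13.5% of the 37, background 6.32%), and in 3 every one was below (8.11%, background 6.16%). The 5 were Col4a6, Col5a3, Col9a1, Col20a1 and Col27a1, and the 3 were Col4a1, Col18a1 and Col8a2. Without calcipotriol-treated tumor 1, these numbers were 5 and 9 (13.5% and 24.3%), against backgrounds of 10.8% and 12.2%, and without EtOH-treated tumor 1 they were 6 and 3 (16.2% and 8.11%), against 9.68% and 8.16%. The low-count filter asks for enough counts in at least 4 of the 8 tumors, whichever group they belong to. A gene that falls short of it in every tumor of 1 group could enter the test only through the other group. These counts therefore describe the 37 and not all 44.

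The classes were described by their medians, with no test between them, and their fold changes overlapped. The median log2 fold change was -0.95 over the 7 basement membrane genes tested, of which 5 were negative, 0.04 over the 11 fibrillar genes and -0.06 over the 19 other genes, beside 0.02 over all genes tested. Over all 37 it was -0.27. Leaving out 1 tumor at a time gave medians from -1.29 to -0.66 for the basement membrane genes, from -0.23 to 0.35 for the fibrillar genes and from -0.16 to 0.13 for the others, and the sign of the last 2 medians turned in at least 1 of these fits. Among the 23 collagen genes with a mean of at least 1 CPM per kilobase, a split made after the values were seen, 17 were negative and 6 positive, and among the 14 tested genes under that level 3 were negative and 11 positive. Of all genes tested, 47.9% were negative and 52.1% positive.

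**Figure D2:**
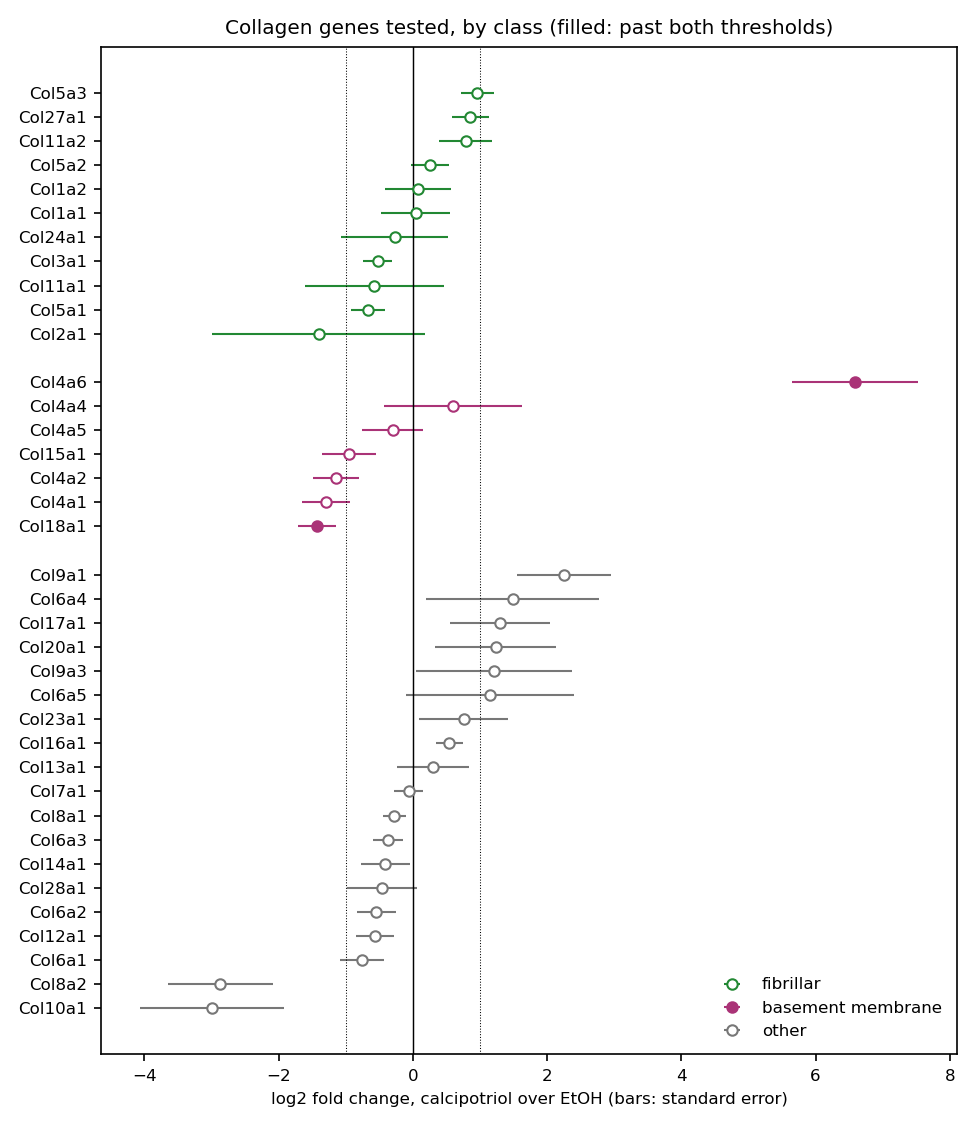
Points give the log2 fold change, calcipotriol over EtOH, of each of the 37 collagen genes tested, with bars for the standard error, grouped by class; filled points passed both thresholds and dotted lines mark a log2 fold change of 1 in either direction. Col4a6 lies far to the right at 6.59 and Col18a1 at -1.43, while 5 of the 7 basement membrane genes lie left of 0.

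The 6 type IV genes sit in 3 head-to-head pairs, each pair on opposite strands with the starts close together. Col4a1 and Col4a2, on chromosome 8, encode the chains of the common α1α1α2 network found in nearly all basement membranes. Their annotated starts overlap by 22 bases in GENCODE M21 (GRCm38), with Col4a1 at chr8:11198423-11312826 on the reverse strand and Col4a2 at chr8:11312805-11449287 on the forward strand. Col4a6 (chrX:141165403-141474076, reverse) and Col4a5 (chrX:141475385-141689234, forward) lie 1308 bases apart, and their chains form the α5α5α6 network of some epithelial and smooth muscle basement membranes. Col4a4 (chr1:82448423-82586849, reverse) and Col4a3 (chr1:82586921-82722059, forward) lie 71 bases apart and join with the α5 chain in the kidney glomerulus.

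The RefSeq promoter windows of the pairs on chromosomes 8 and X, 250 bases before to 50 bases after each start in GRCm38.p6, are shown because the genes of the first pair had like fold changes and those of the second did not. Each is written 5′ to 3′ on the strand of its gene, and capitals mark a CCAAT box (CCAAT) or a GC box (GGGCGG) on either strand. They are Col4a1 at chr8:11312777-11313076, Col4a2 at chr8:11312555-11312854, Col4a6 at chrX:141474027-141474326 and Col4a5 at chrX:141475169-141475468.
Col4a1: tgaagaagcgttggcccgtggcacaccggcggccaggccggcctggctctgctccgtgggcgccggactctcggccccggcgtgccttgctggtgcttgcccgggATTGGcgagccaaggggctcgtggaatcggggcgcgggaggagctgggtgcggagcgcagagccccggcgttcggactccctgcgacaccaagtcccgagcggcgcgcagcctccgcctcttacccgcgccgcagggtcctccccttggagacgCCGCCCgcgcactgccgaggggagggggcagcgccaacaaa
Col4a2: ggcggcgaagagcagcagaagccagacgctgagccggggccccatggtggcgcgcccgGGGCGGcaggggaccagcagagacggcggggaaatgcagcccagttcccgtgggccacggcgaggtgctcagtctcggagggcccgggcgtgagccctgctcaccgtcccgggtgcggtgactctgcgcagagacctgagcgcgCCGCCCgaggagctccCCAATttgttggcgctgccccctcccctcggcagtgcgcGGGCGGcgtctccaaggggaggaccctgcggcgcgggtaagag
Col4a6: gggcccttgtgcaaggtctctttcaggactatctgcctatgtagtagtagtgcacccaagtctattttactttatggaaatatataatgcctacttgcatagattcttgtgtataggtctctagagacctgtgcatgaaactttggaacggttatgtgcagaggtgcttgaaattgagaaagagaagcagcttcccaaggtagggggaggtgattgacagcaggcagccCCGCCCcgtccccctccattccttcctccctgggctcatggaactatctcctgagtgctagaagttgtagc
Col4a5: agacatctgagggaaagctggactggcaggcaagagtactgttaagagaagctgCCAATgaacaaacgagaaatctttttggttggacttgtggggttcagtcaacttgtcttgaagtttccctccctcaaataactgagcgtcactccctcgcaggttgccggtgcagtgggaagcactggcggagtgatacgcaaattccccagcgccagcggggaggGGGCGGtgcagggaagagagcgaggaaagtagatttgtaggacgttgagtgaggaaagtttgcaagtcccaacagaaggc
The Col4a1 and Col4a2 windows share 78 bases at chr8:11312777-11312854 read on opposite strands, with 1 GC box inside them. They hold 74.0% and 73.7% G and C, with 37 and 33 CpG dinucleotides, where the median window of the reference holds 52.7% G and C. The Col4a6 window holds 48.3% G and C with 3 CpG dinucleotides, and the Col4a5 window 52.7% with 11. RefSeq windows were found for 35 of the 44 genes (38 windows), not including Col4a3. A GC box was in 23 of these 38 windows and in 35.7% of 32851 windows of the same length, and a CCAAT box in 13 and in 37.4%. A TATA box (TATAAA) was in 5 and in 13.6%, and an AP-1 site (TGANTCA) in 1 and in 7.81%. The direct repeat of the kind bound by the vitamin D receptor (GGTCA, any 4 bases, then GGTCA again) was in 0 of the 38 and in 0.0457% of all windows. At so low a share, 0 of 38 was likely beforehand and does not show that the receptor has no sites at these genes. Only these exact letters, within the windows, were searched. All motif counts are matches of letters on both strands, and none of the motifs searched contains another.

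Col4a1 was at 1918, 1609, 767 and 710.2 CPM in EtOH-treated tumors 1 to 4, and at 704.3, 286, 482 and 566 CPM in calcipotriol-treated tumors 1, 5, 6 and 7. EtOH-treated tumors 1 and 2 were high, and the groups did not overlap, though EtOH-treated tumor 4 and calcipotriol-treated tumor 1 nearly met. The log2 fold change was -1.30 (standard error, SE, 0.36), and the gene did not pass (adjusted p = 0.0873, edgeR quasi-likelihood test). Col4a2 followed its partner, at 1326, 1100.3, 509 and 489.8 CPM with EtOH and 495, 249.5, 361 and 441 CPM with calcipotriol. Here calcipotriol-treated tumor 1 was just above EtOH-treated tumor 4, so the groups overlapped. Its log2 fold change was -1.15 (SE 0.34, adjusted p = 0.107, edgeR quasi-likelihood test). Both genes passed with DESeq2 (adjusted p = 0.00306 and 0.00781) and in edgeR without the low-count filter (0.0299 and 0.0435), and Col4a1 also passed in edgeR without calcipotriol-treated tumor 1 (0.0494). With limma-voom they did not.

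Col4a6, the chain that pairs with α5, had the largest log2 fold change of the 37. It had 4, 0, 0 and 7 counts with EtOH, against 163, 649, 122 and 193 with calcipotriol. Every calcipotriol-treated tumor was far above the control range, and tumor 5 was the highest. The means were 0.126 ± 0.153 CPM (mean ± SD, n = 4) with EtOH and 12.5 ± 11.4 CPM (mean ± SD, n = 4) with calcipotriol. The fitted log2 fold change was 6.59 (SE 0.94, adjusted p = 0.0082, edgeR quasi-likelihood test), a size that depends on the prior count, since 11 counts in all stood against it in the control group. The gene passed the low-count filter only through the calcipotriol-treated tumors. It kept its call in all 8 fits that left out 1 tumor (adjusted p = 0.00316 to 0.0304, edgeR), while limma-voom gave an adjusted p of 0.12. Per kilobase its mean with both groups together was 0.953 CPM, above Col4a4 (0.0918) and Col4a3 (0.0117) and below Col4a5 (19.9), Col4a1 and Col4a2.

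Its head-to-head neighbor did not move with it. Col4a5, whose chain is shared by both minor networks, was at 224, 215, 72.5 and 62.5 CPM with EtOH and at 71.4, 69.8, 163 and 161 CPM with calcipotriol. Both groups held a high and a low pair of tumors and overlapped fully. The log2 fold change was -0.30 (SE 0.46, adjusted p = 0.777, edgeR quasi-likelihood test), and it was 0.00 without EtOH-treated tumor 1. The difference between the fold changes of Col4a6 and Col4a5 was not tested. Col4a4 was near the floor, with 17, 19, 10 and 18 counts with EtOH and 0, 53, 11 and 36 with calcipotriol, and a log2 fold change of 0.60 (SE 1.02, adjusted p = 0.807). Col4a3 was not tested, with 0 counts in each EtOH-treated tumor and 2, 13, 0 and 3 counts with calcipotriol.

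**Figure D3:**
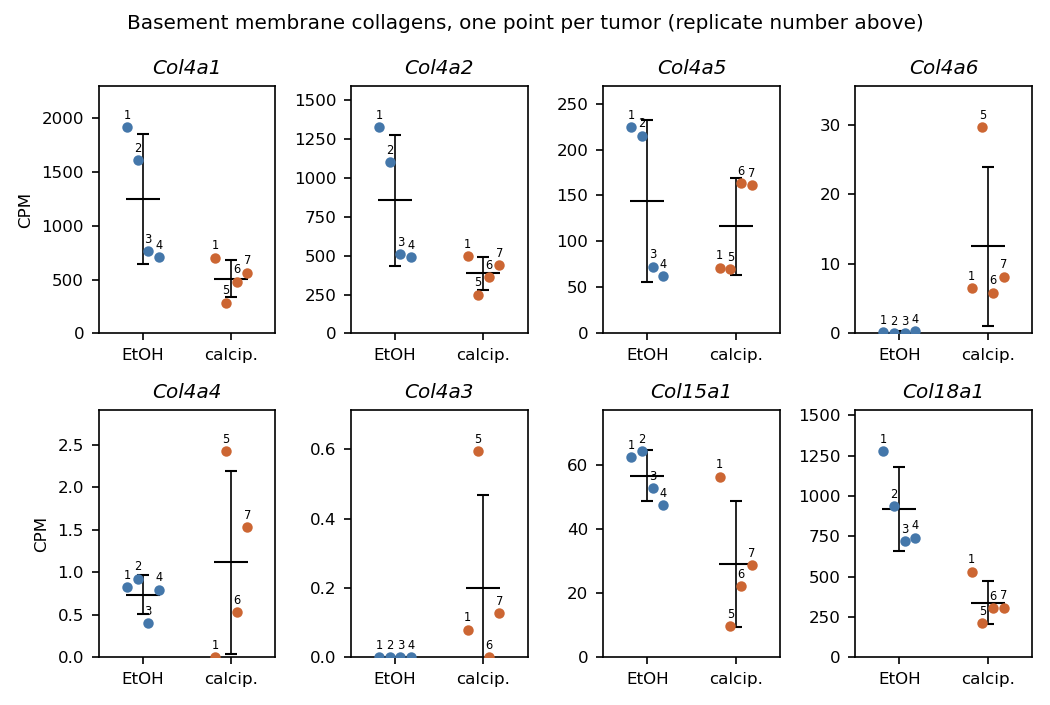
Each panel gives CPM on a linear axis from 0 for 1 basement membrane collagen gene, with 1 point per tumor labelled by replicate number, a line at the mean and bars of 1 SD (n = 4). Col18a1 runs from 718 to 1276 CPM with EtOH and from 213 to 532 CPM with calcipotriol, Col4a6 is near 0 in all EtOH-treated tumors, and in Col4a1, Col4a2 and Col4a5 EtOH-treated tumors 1 and 2 lie above 3 and 4.

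Col18a1 (chr10:77052178-77166548, reverse strand) encodes a heparan sulfate proteoglycan collagen of vascular and epithelial basement membranes, the source of the fragment endostatin. It was at 1276, 938, 718 and 742 CPM with EtOH and at 532, 213, 306 and 309 CPM with calcipotriol. No calcipotriol-treated tumor reached the control range. The means were 919 ± 258 CPM (mean ± SD, n = 4) and 340 ± 136 CPM (mean ± SD, n = 4), and the log2 fold change was -1.43 (SE 0.28, adjusted p = 0.0284, edgeR quasi-likelihood test). The direction held in each of the 8 fits without 1 tumor, with log2 fold changes of -1.74 to -1.23. The call was lost in 5 of them, namely without EtOH-treated tumor 1 or 2 or calcipotriol-treated tumor 5, 6 or 7 (adjusted p = 0.0667 to 0.0975, edgeR). Against a fold change of 1 on the log2 scale, edgeR's glmTreat gave an adjusted p of 1.0. The gene has 2 promoter windows in RefSeq, and gene counts do not separate their transcripts. Col15a1, the close relative of Col18a1 that joins basement membranes to the fibrils beneath, was at 62.5, 64.4, 52.8 and 47.5 CPM with EtOH and at 56.4, 9.82, 22.3 and 28.7 CPM with calcipotriol. Calcipotriol-treated tumor 1 lay inside the control range and the other 3 below it. Its log2 fold change was -0.95 (SE 0.40, adjusted p = 0.242, edgeR quasi-likelihood test) with all tumors and -1.48 (adjusted p = 0.0222) without calcipotriol-treated tumor 1.

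None of the 11 fibrillar genes was called by edgeR, DESeq2 or limma-voom with all tumors. At an unadjusted p under 0.05 in edgeR, 2 were higher (Col5a3 and Col27a1) and 2 lower (Col3a1 and Col5a1). The type I chains, the bulk of most connective tissue, showed no clear shift between groups and a wide spread within them, which could hide one. Col1a1 was at 303, 271, 1155 and 1039.9 CPM with EtOH and at 760.4, 284, 789 and 1013 CPM with calcipotriol. EtOH-treated tumors 1 and 2 and calcipotriol-treated tumor 5 were low, and the groups overlapped. Its log2 fold change was 0.04 (SE 0.51, adjusted p = 0.978, edgeR quasi-likelihood test), and Col1a2, which supplies the other chain of the type I trimer, was at 0.07 (SE 0.50, adjusted p = 0.957). In both genes the sign turned in 4 of the 8 fits that left out 1 tumor.

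Col3a1, the highest collagen gene per kilobase, was at 4165, 3825, 2836 and 2577 CPM with EtOH and at 1921, 1814, 2660.4 and 2937 CPM with calcipotriol. EtOH-treated tumors 1 and 2 were highest here, the reverse of Col1a1, and the groups overlapped. The log2 fold change was -0.52 (SE 0.22, adjusted p = 0.236, edgeR quasi-likelihood test). The 3 type V chains, which seed and limit the width of type I fibrils, went different ways. Col5a1 did not pass, at -0.67 (SE 0.25, adjusted p = 0.19), Col5a2 was at 0.26 (adjusted p = 0.684), and Col5a3 was at 0.96 (SE 0.24, adjusted p = 0.0644). Col5a3 was at 21.9 to 38.0 CPM with EtOH and 38.1 to 80.3 CPM with calcipotriol, with no overlap by a narrow margin, and it passed without calcipotriol-treated tumor 5 (log2 fold change 1.13, adjusted p = 0.0425, edgeR). Col27a1, a cartilage fibril collagen, was at 2.97 to 5.35 CPM with EtOH and 5.85 to 8.18 CPM with calcipotriol (log2 fold change 0.85, adjusted p = 0.135, edgeR), again without overlap. The cartilage collagens Col11a2 (0.79), Col11a1 (-0.58) and Col2a1 (-1.41) and the minor chain Col24a1 (-0.27) were all under 10 CPM, with adjusted p of 0.324 or more in edgeR. Col2a1 had 48, 123, 16 and 5 counts with EtOH and 86, 0, 0 and 0 with calcipotriol, and it passed without calcipotriol-treated tumor 1 (adjusted p = 0.0396, edgeR), when no counts were left in that group.

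**Figure D4:**
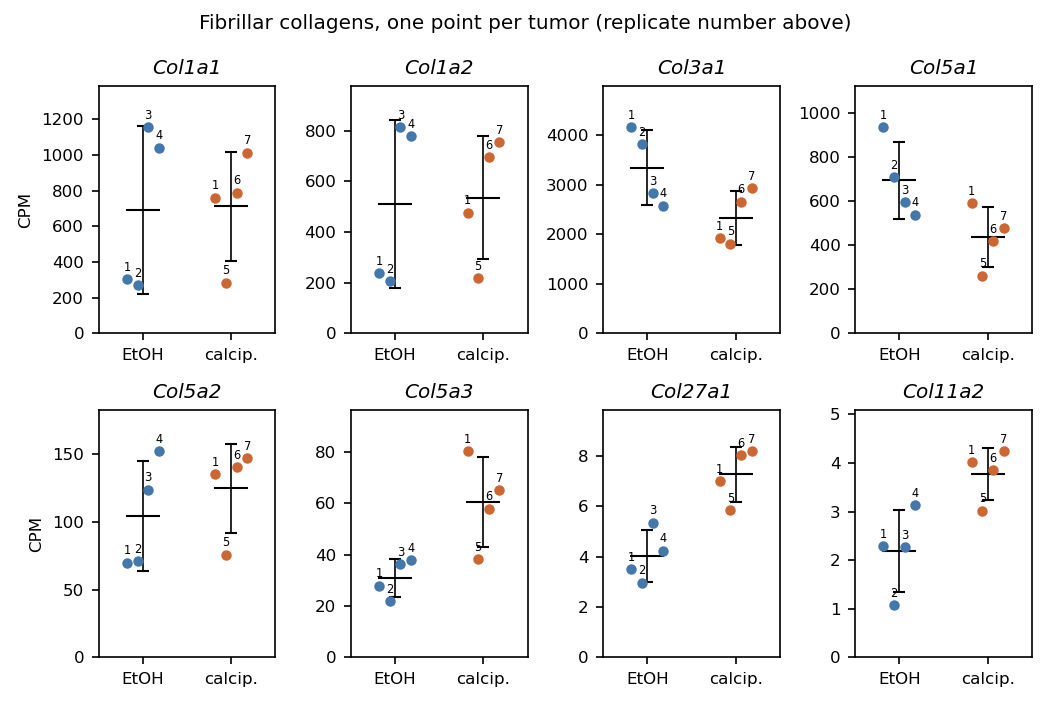
Each panel gives CPM on a linear axis from 0 for 1 fibrillar collagen gene, with 1 point per tumor labelled by replicate number, a line at the mean and bars of 1 SD (n = 4). In Col1a1 and Col1a2 EtOH-treated tumors 1 and 2 are low and in Col3a1 and Col5a1 they are high, while Col5a3 runs from 21.9 to 38.0 CPM with EtOH and from 38.1 to 80.3 CPM with calcipotriol.

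Of the 25 other collagens, 19 were tested, and edgeR called 0 of them, with 2 higher and 3 lower at an unadjusted p under 0.05. DESeq2 called Col9a1 higher and Col8a2 lower, and limma-voom called 0. The 3 short-chain network collagens, which form hexagonal lattices, were all negative. Col8a2, a chain of endothelial and corneal matrix, was at 28.9, 16.3, 8.06 and 5.78 CPM with EtOH and at 3.73, 3.47, 0.529 and 0.297 CPM with calcipotriol. The groups did not overlap, and the log2 fold change was -2.87 (SE 0.78, adjusted p = 0.0822, edgeR quasi-likelihood test). It passed with DESeq2 (adjusted p = 0.00139), in edgeR without the low-count filter (0.02) and in edgeR without calcipotriol-treated tumor 1 (0.0472). Col10a1, known from hypertrophic cartilage, had 994, 1326, 26 and 39 counts with EtOH and 138, 58, 66 and 74 with calcipotriol, so its log2 fold change of -2.99 (SE 1.07, adjusted p = 0.17) rested on EtOH-treated tumors 1 and 2. Col8a1, a vessel wall collagen, was at 413 to 463 CPM with EtOH and 263.7 to 474 CPM with calcipotriol (log2 fold change -0.28, adjusted p = 0.435).

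The beaded filament genes Col6a1, Col6a2 and Col6a3 encode the common type VI trimer. Col6a1 was at 2061, 1959, 918 and 855 CPM with EtOH and at 914, 515, 947 and 1059.9 CPM with calcipotriol. Col6a2 was at 1028, 993, 509 and 473 CPM with EtOH and at 509, 331, 578 and 643 CPM with calcipotriol. In both, EtOH-treated tumors 1 and 2 were above all the rest, while EtOH-treated tumors 3 and 4 lay among the calcipotriol-treated tumors. The log2 fold changes were -0.75, -0.54 and -0.37 for the 3 genes in turn (adjusted p = 0.254, 0.358 and 0.418, edgeR). The alternative chains Col6a4 (1.49) and Col6a5 (1.15) stayed under 6 CPM in every tumor, and Col6a6, with at most 25 counts, was not tested.

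Among the fibril-associated collagens, which coat fibrils and link them to other matrix, 4 of the 6 tested were positive. Col9a1, which decorates cartilage fibrils, had 5.54, 3.50, 1.30 and 0.662 CPM with EtOH and 8.82, 30.1, 6.92 and 6.40 CPM with calcipotriol. All calcipotriol-treated tumors were above the controls, tumor 5 by far, and the log2 fold change was 2.25 (SE 0.70, adjusted p = 0.12, edgeR quasi-likelihood test). It passed with DESeq2 (adjusted p = 0.0094) and in edgeR without the low-count filter (0.0456). Col16a1 was at 0.54 (SE 0.20, adjusted p = 0.19), Col20a1 at 1.24 and Col9a3 at 1.21, while Col12a1 was at -0.56 and Col14a1 at -0.41, all with adjusted p of 0.19 or more in edgeR. Of the collagens that anchor or cross membranes, Col7a1, the anchoring fibril of skin, was at 282 ± 72.6 CPM (mean ± SD, n = 4) with EtOH and 269.7 ± 70.2 CPM (mean ± SD, n = 4) with calcipotriol. Col17a1, the hemidesmosome collagen of basal epithelium, was at 1.30 on the log2 scale (adjusted p = 0.385), Col23a1 at 0.76 and Col13a1 at 0.30. Col25a1 was not tested, with 2, 0, 10 and 0 counts with EtOH and 89, 17, 6 and 7 with calcipotriol, and Col9a2 had 2 counts in a single tumor. Col28a1, a von Willebrand factor A domain collagen outside the named subclasses, was at 526, 506, 214 and 178 CPM with EtOH and at 56.3, 273, 344 and 366 CPM with calcipotriol (log2 fold change -0.46, adjusted p = 0.695), with calcipotriol-treated tumor 1 far under the rest.

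Ratios of chains within a tumor do not depend on library size, and those below were chosen after the values were seen and are given without a test. As CPM per kilobase, Col1a1 stood to Col1a2 at 1.15 to 1.28 with EtOH and 1.02 to 1.44 with calcipotriol, although Col1a1 itself varied from 271 to 1155 CPM. Col4a1 stood to Col4a2 at 1.41 to 1.47 with EtOH and 1.12 to 1.39 with calcipotriol, and Col6a1 to Col6a2 at 2.05 to 2.28 and 1.76 to 2.04. The ratios of these 3 pairs of trimer partners varied little. In the type IV and type VI pairs every calcipotriol-treated tumor was nonetheless below every EtOH-treated tumor, by a narrow margin. Col5a1 and Col5a2 varied more, with a ratio of 2.79 to 10.5 with EtOH and 2.34 to 3.44 with calcipotriol. The ratio of Col5a3 to Col5a1 was 0.0412 to 0.0969 with EtOH and 0.187 to 0.201 with calcipotriol, so that the 4 calcipotriol-treated tumors, tumor 1 included, lay close together above all controls. The ratio of Col3a1 to Col1a1 was 14.7 and 15.0 in EtOH-treated tumors 1 and 2, 2.62 and 2.64 in tumors 3 and 4, and 2.69 to 6.82 with calcipotriol. Col4a5 stood to Col4a1 at 0.0891 to 0.135 with EtOH, at 0.103 in calcipotriol-treated tumor 1 and at 0.247 to 0.343 in the other calcipotriol-treated tumors.

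**Figure D5:**
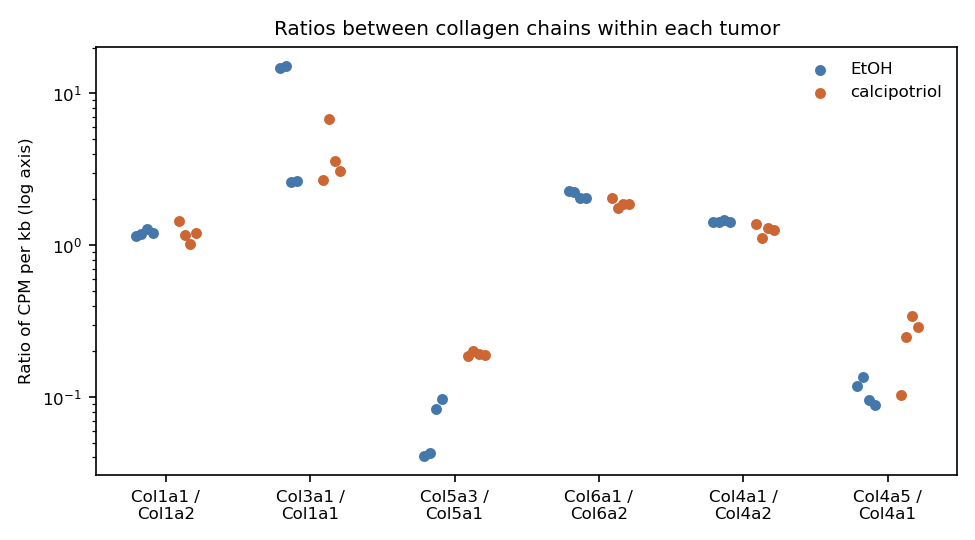
Points give, for each tumor, the ratio of CPM per kilobase between 2 collagen chains, on a log axis, with EtOH-treated tumors (replicates 1 to 4, left to right) beside calcipotriol-treated tumors (1, 5, 6 and 7). Col5a3 over Col5a1 is 0.0412 to 0.0969 with EtOH and 0.187 to 0.201 with calcipotriol, while Col3a1 over Col1a1 splits the EtOH-treated tumors into a pair near 15.0 and a pair near 2.62.

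Genes that fold, process and bind collagen were read from the same fit, in which edgeR called 1.07% of all genes tested higher and 0.948% lower. At an unadjusted p under 0.05 these shares were 8.56% and 9.84%. Of the 19 folding and modification genes, all tested, 15 were negative with a median log2 fold change of -0.19, and 1 was called higher. Serpinh1, the collagen chaperone HSP47, was at 917 ± 96.7 CPM (mean ± SD, n = 4) with EtOH and 554 ± 75.4 CPM (mean ± SD, n = 4) with calcipotriol, lower in every calcipotriol-treated tumor. Its log2 fold change was -0.73 (adjusted p = 0.0309, edgeR quasi-likelihood test), past the p threshold and short of the fold threshold. P3h4, a member of the complex that modifies lysines of the helix, rose from 5.65 ± 2.80 CPM (mean ± SD, n = 4) to 19.0 ± 7.46 CPM (mean ± SD, n = 4), with a log2 fold change of 1.75 (adjusted p = 0.0462, edgeR). The adjusted p of Serpinh1 was over 0.05 in 7 of the 8 fits without 1 tumor, all but the one without calcipotriol-treated tumor 1, and that of P3h4 in all 8, reaching 0.0875 and 0.105.

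Of 14 genes for propeptide removal and cross-linking, 12 were tested, with 6 in each direction and a median of 0.02, and none was called by edgeR, DESeq2 or limma-voom. At an unadjusted p under 0.05, edgeR gave 2 higher and 2 lower. The smallest p belonged to Pcolce2, an enhancer of propeptide cleavage (log2 fold change 0.43, adjusted p = 0.184), and Loxl4, a lysyl oxidase (1.45, adjusted p = 0.23). Of the 9 fibril-organising proteoglycans, all tested, 6 were negative, with a median of -0.42, and 1 was called. Prelp, a proteoglycan that anchors basement membranes to the connective tissue, rose from 32.3 ± 1.20 CPM (mean ± SD, n = 4) to 149 ± 67.8 CPM (mean ± SD, n = 4), a log2 fold change of 2.21 (adjusted p = 0.0115, edgeR quasi-likelihood test), and it passed in all 8 fits without 1 tumor. Dcn, the small proteoglycan decorin that binds type I fibrils, was at 421 ± 149 and 986 ± 474 CPM (mean ± SD, n = 4 each), with a log2 fold change of 1.23 (adjusted p = 0.136, edgeR). Calcipotriol-treated tumor 1 lay in the control range at 318 CPM, the other 3 at 991 to 1377 CPM. Without tumor 1 Dcn was called higher (adjusted p = 0.008, edgeR), Aspn was called lower (0.0413), and Prelp kept its call. All genes tested then gave 1.62% called higher and 2.7% called lower.

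Of 9 collagen receptors, 8 were tested, 6 were negative with a median of -0.38, and none was called by edgeR, DESeq2 or limma-voom, with 1 higher and 2 lower at an unadjusted p under 0.05 in edgeR. The receptor tyrosine kinases Ddr1 (log2 fold change 0.73, adjusted p = 0.0955) and Ddr2 (-0.54, adjusted p = 0.115) had the smallest p and opposite signs. Of 15 basement membrane partners, 14 were tested, and 10 were negative with a median of -0.53. In 6 of the 14 every calcipotriol-treated tumor was below every control, as in 6.16% of all genes tested. Nid2, a nidogen that bridges laminin and type IV collagen, fell from 30.2 ± 9.69 CPM (mean ± SD, n = 4) to 9.79 ± 4.46 CPM (mean ± SD, n = 4), with a log2 fold change of -1.62 (adjusted p = 0.0404, edgeR quasi-likelihood test). Its call was lost in 6 of the 8 fits without 1 tumor, those without EtOH-treated tumor 1, 2 or 4 or calcipotriol-treated tumor 5, 6 or 7 (adjusted p up to 0.129). Lamc1, the γ1 chain of most laminins, had the smallest p after Nid2 (-0.88, adjusted p = 0.0548, edgeR). Lama3, a laminin chain of epithelium, was not called with all tumors (log2 fold change 3.61, adjusted p = 0.207, edgeR). It was at 0 to 0.779 CPM with EtOH and at 0, 0.959, 6.92 and 11.9 CPM in calcipotriol-treated tumors 1, 5, 6 and 7. Without calcipotriol-treated tumor 1 it was called higher (adjusted p = 0.0464, edgeR), a call that rested on tumors 6 and 7.

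Markers of cell types that a tumor can hold were read from the same fit, with the same shares over all genes tested. All 12 endothelial markers had negative log2 fold changes, and 6 were called lower by edgeR (background 0.948%), 10 by DESeq2 (2.21%) and 4 by limma-voom (1.03%), with a summed level of 242.6 to 518 CPM with EtOH and 104.1 to 187 CPM with calcipotriol. Pecam1 was at -1.36 (adjusted p = 0.0331, edgeR quasi-likelihood test), Cdh5 at -1.46 (0.126) and Kdr at -1.75 (0.00384). The call of Pecam1 was lost in 5 of the 8 fits without 1 tumor, those without EtOH-treated tumor 1 or 2 or calcipotriol-treated tumor 5, 6 or 7 (adjusted p up to 0.103, edgeR), and that of Kdr in 0. Without EtOH-treated tumor 1, 3 of the 12 were called (background 0.35%), and without calcipotriol-treated tumor 1, 8 were (2.7%). Of the 8 mural markers, 7 were negative and Rgs5 (-2.60, adjusted p = 0.0162) and Mcam were called lower. Notch3 was positive (0.74, adjusted p = 0.337, edgeR). The mural sums were 422.7 to 922 CPM and 338.7 to 522 CPM. Most of them was Pdgfrb, at 302 to 693 CPM and 284 to 446 CPM (-0.28, adjusted p = 0.637, edgeR). The endothelial sum fell into the same pairs as Col4a1 with EtOH, 489.6 and 518 CPM in tumors 1 and 2 and 242.6 and 264.5 CPM in tumors 3 and 4. None of the markers of these 2 lists was at 0 in all tumors, and their part in the lower basement membrane collagens was not tested.

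The fibroblast list had 4 positive and 5 negative of 9 tested, with sums of 999 to 1615 CPM with EtOH and 818 to 1350 CPM with calcipotriol. Most of that sum was Fbn1 alone, at 735 to 1285 CPM and 490 to 941 CPM (log2 fold change -0.48, adjusted p = 0.306, edgeR). Besides Pdgfra, the positive genes were Dpt (0.78), Mfap5 (0.43) and Clec3b (1.03), none of them called. Pdgfra was at 0.55 (adjusted p = 0.416), Fbln1 was called lower (-1.46, adjusted p = 0.0175, edgeR quasi-likelihood test), and Tcf21 was at 0 in all tumors. Its call was lost without EtOH-treated tumor 1 or 2 or calcipotriol-treated tumor 6. Of the 8 basal epithelial markers 5 were tested, and Krt14 (0.686 ± 0.617 to 25.4 ± 22.8 CPM, mean ± SD, n = 4 each) and Trp63 (0.802 ± 0.445 to 4.78 ± 1.86 CPM, mean ± SD, n = 4 each) rose, with adjusted p of 0.0336 and 0.0333 in edgeR. Krt5 did not (log2 fold change -0.27, adjusted p = 0.927), and none of the 8 was at 0 in all tumors. In all, 3 of those tested were positive and 2 negative. The summed list was 287.3 to 418 CPM with EtOH and 176.5 to 319 CPM with calcipotriol. Most of that sum was Itgb4 alone, at 279 to 415 CPM and 152 to 313 CPM (log2 fold change -0.62, adjusted p = 0.17, edgeR). Krt14 passed only without calcipotriol-treated tumor 1 among the 8 fits without 1 tumor, and Trp63 in 2 of them. The part of basal cells in the rise of Col4a6 was not tested.

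The remaining lists stand for other cells of the tumor. Of the 8 luminal epithelial markers, 6 were tested, with 4 positive, 2 negative and a median log2 fold change of 0.42. The sums were 1012 to 1322 CPM with EtOH and 599.8 to 899 CPM with calcipotriol. Most of these sums came from Krt8 and Krt18, the 2 negative genes, so they do not give a level of luminal cells. Epcam was positive (2.62, adjusted p = 0.328, edgeR), as were Krt19 and Cdh1. Cldn3 rose (3.93, adjusted p = 0.00654, edgeR quasi-likelihood test), and Krt18 was at -0.93 (adjusted p = 0.0162, and over 0.05 without calcipotriol-treated tumor 6 or 7). All 8 macrophage markers were negative, and Csf1r (-1.64, adjusted p = 0.0374) and Adgre1 were called lower, calls that held only in the fit without calcipotriol-treated tumor 1 among the 8 without 1 tumor. Without that tumor 6 of the 8 markers were called lower (background 2.7%). Without EtOH-treated tumor 1, 0 were called in edgeR (background 0.35%), with 6 lower at an unadjusted p under 0.05 (background 8.56%). Their sums were 1876 to 2282 CPM with EtOH and 728 to 1713 CPM with calcipotriol. By staining, the study counted more macrophages in calcipotriol-treated tumors than in EtOH-treated ones, the other direction from this marker RNA. Staining and RNA were not compared here. Of the 7 adipocyte markers 5 were tested and Fabp4 was called lower (-1.19, adjusted p = 0.0082), with sums of 52.0 to 58.2 CPM and 25.6 to 35.1 CPM. Most of these sums came from Fabp4 and Lipe. Adipoq, Plin1, Cidec, Lep and Pparg were at no more than 2.63 CPM in any tumor. Adipoq, first in the list, was positive (0.80, adjusted p = 0.818, edgeR), so the sums do not give a level of adipocytes. Of the 7 skeletal muscle markers, all tested, none was called by edgeR or limma-voom, 1 was called lower by DESeq2, and 2 were lower at an unadjusted p under 0.05 in edgeR. Their sums were 2.43 and 1.56 CPM in EtOH-treated tumors 1 and 2 and 40.7 and 44.0 CPM in tumors 3 and 4. With calcipotriol they were 2.11 to 8.65 CPM. Col1a1 split the controls in the same way, and so did Dpt, Mfap5, Clec3b, Lox and Lum. Dpt was at 3.89 and 3.70 CPM in EtOH-treated tumors 1 and 2 and at 23.5 and 30.9 CPM in tumors 3 and 4. Pdgfra and Fbn1 were higher in tumors 1 and 2 instead. The part of any of these genes in the collagen levels was not tested.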

How the data were processed

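RNA-Seq of 4 EtOH-treated and 4 calcipotriol-treated PyMt tumors gave a deposited table of estimated counts per gene, without normalization between tumors. The authors' processing notes name GRCm38, STAR 2.5.3, RSEM 1.3.1 and DESeq2 1.24.0 without roles, and the paper names limma. The annotation release and strand of counting are not given in the sources used here, so antisense overlaps (Col4a1 with Col4a2 among them) were not resolved. The labels name a NovaSeq sequencer and the paper a HiSeq. The table has 0 columns of other samples, and groups came from the treatment labels. Each tumor was taken as a biological replicate, as the methods state, and the mean squared difference between replicates of a group was 20.2 to 133 in units of counting error.

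Counts were rounded (4.2% to 6.22% were not whole) and fitted over all genes in R 4.3.3 with edgeR 4.0.16 (filterByExpr, TMM, glmQLFit, glmQLFTest), as the unit required. The biological coefficient of variation was 0.347. Thresholds were those of the study's methods. Standard errors were the log2 fold change divided by the root of F. Symbols, positions and lengths came from GENCODE M21 and promoter windows from RefSeq. Alternatives used limma 3.58.1 and DESeq2 1.42.0. The fit was tested on simulated data. Collagen genes named with values in every tumor were those called, type IV chains, Col15a1, Col18a1 and the 6 highest per kilobase, and others whose values are given so were chosen after they were seen. Of the pathway lists, genes past the adjusted p threshold and up to 2 with the smallest p are named, and of the marker lists, leading or called genes. Some further markers and pathway genes are named because they made up most of a sum, were low, went the other way or split the controls as Col1a1 did. The members, classes and lists were chosen with earlier results of these data known. Floors cover counting error only, because PCR copies are not separate molecules.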

Additional observations from a re-analysis of the deposited data

Results flagged for a closer look

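In 6 of the 74 groups of 4 tumors examined (37 collagen genes in 2 groups), 1 tumor lay farther from the nearest other than Dixon's test at the 5% level allows, with 0.1 added to CPM before taking log2, where chance gives about 3.7. Calcipotriol-treated tumor 1 accounted for 3 of them. It had 3.42 CPM of Col2a1, a gene without counts in tumors 5, 6 and 7, 0.0795 CPM of Col6a5 against 0.890 to 1.11 CPM, and 56.3 CPM of Col28a1 against 273 to 366 CPM. Calcipotriol-treated tumor 5 had 75.9 CPM of Col5a2 against 134.9 to 147 CPM. EtOH-treated tumor 4 had 0 CPM of Col6a4 against 0.681 to 0.925 CPM, and EtOH-treated tumor 1 had 2.04 CPM of Col24a1 against 0.353 to 0.438 CPM.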

How the results depend on the processing

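Collagen genes called higher and lower were 1 and 1, and 2 and 4 with DESeq2 or without the low-count filter, when Col4a1, Col4a2, Col8a2 and Col9a1 were added. Limma-voom gave 0 higher, 10 counts required in every tumor gave 0 higher because that filter removes Col4a6, and glmTreat gave 0 lower. Without 1 tumor the range was 1 to 2 higher and 0 to 5 lower, with 5 lower without calcipotriol-treated tumor 1. The added removal of that tumor gave 9 lower genes without overlap in place of 3 (range 3 to 9, and 5 to 6 higher), while the share over all genes went from 6.16% to 12.2%. All genes called were 155 higher and 137 lower, and 247 and 211 without the filter (which moved the median of all genes to 0.11), 324 and 320 with DESeq2, 13 and 9 with glmTreat, and 68 to 241 and 41 to 401 without 1 tumor. The cause was not tested. DESeq2's size factors, and TMM without collagen genes or without muscle, adipocyte and dominant genes, changed no collagen call, and adjusted p alone called the same 2 collagen genes and 198 and 198 of all genes. The median of the other collagens was -0.36 with 10 counts required in every tumor and -0.16 to 0.13 without 1 tumor. Signs turned with limma-voom in Col11a1 (0.44), Col24a1 (0.0212) and Col4a4 (-0.77). Without 1 tumor they turned in Col11a1 (-0.98 to 0.24), Col1a1 (-0.23 to 0.40), Col1a2 (-0.19 to 0.39), Col24a1 (-0.52 to 0.74), Col4a4 (-0.10 to 1.01), Col4a5 (-0.55 to 0.00364), Col6a4 (-0.70 to 1.88) and Col7a1 (-0.25 to 0.13), none of them called. Of the single results and alternatives run, 541 kept direction and side of the threshold, 20 turned, 13 came past it and 7 fell short of it. Genes under 1 CPM per kilobase are limited by depth. No paired analysis was possible because the groups share only replicate number 1.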
